A study of Mus musculus with 2 samples.

Results

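Interleukins 12, 15, 18 and 27 are cytokines that myeloid cells pass to T cells and natural killer (NK) cells, and 8 genes of these axes were followed in J558 allografts. The genes were Il12b, Il27, Il15, Il15ra, Il2rb, Il18, Il18bp and Il18r1, picked by symbol out of the 32285 features of the count tables, and all 8 were found. J558 is a plasmacytoma line of BALB/c mice. The cells were grown under the skin of female BALB/c mice, which the study describes as 4 weeks old. They received the vehicle, 0.5% methylcellulose, or TAK-931, an oral inhibitor of the replication kinase CDC7, at 60 mg/kg once a day, and tumors were taken on day 6. All hosts were immune-competent and carried the same line. Each condition was 1 droplet 3′ single-cell library from 1 allograft, picked by the study as representative of its group, so no difference between them could be tested against a spread between tumors.

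IL-12 and IL-27 are made of paired chains: Il12b encodes the p40 chain, which pairs with Il12a for IL-12 or with Il23a for IL-23, and Il27 encodes the p28 chain, which pairs with Ebi3. IL-15 is carried on the surface of the producing cell by its receptor alpha chain, Il15ra, and presented to neighbours that bear the beta chain, Il2rb, and the common gamma chain, Il2rg. IL-18 is stored as a precursor that inflammatory caspases cut, it is read through Il18r1 and Il18rap, and Il18bp is a secreted decoy that neutralises it. In tumors these axes are best known for driving interferon gamma and cytotoxic activity in T and NK cells.

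The vehicle library held 4565 barcodes and 144767193 unique molecular identifiers (UMIs), and the TAK-931 library held 6558 barcodes and 77369283 UMIs. The analysis used the 3441 and 3488 cells that had more than 2000 genes and a mitochondrial share below 15%, at a median depth of 40504 and 15097 UMIs. The libraries had 8 barcodes in common, 1 of them among kept cells. Cells were assigned by lists of marker genes, which held none of the 8 genes, and each such gate is named after its markers with the ending "-like". J558-like cells numbered 3000 with vehicle and 99 with TAK-931, monocyte/macrophage-like cells numbered 219 and 2012, and T and NK-like cells numbered 23 and 708. The J558 line is labelled a B lymphocyte: its gate had 8 and 0 UMIs of the B cell factor Pax5 and 2851 and 7367 Jchain UMIs per 1000000, so the plasma cell marker was high and Pax5 at or near 0, while the B cell marker Ms4a1 was present at 21.8 and 33.8 per 1000000.

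In the mouse genome (GRCm38, GENCODE M21) all 8 genes are protein-coding. Il12b lies at chr11:44400063-44414033, Il27 at chr7:126589010-126594941, Il15 at chr8:82331632-82403222 and Il15ra at chr2:11705290-11734317. Il2rb lies at chr15:78479256-78495271, Il18 at chr9:50554827-50581840, Il18bp at chr7:102014885-102018690 and Il18r1 at chr1:40465552-40500854. Il18 overlaps Bco2 by 355 bases and all 4507 bases of Tex12, both on the opposite strand, Il18bp overlaps Numa1 by 80 bases and Il27 overlaps Apobr by 103 bases, also on the opposite strand. Whether counting used the strand was not given in the sources used here, so reads in these overlaps cannot be assigned with certainty.

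RefSeq (GRCm38.p6) gave start-site windows for 5 of the 8 genes. The 250 bases before the start are shown for Il12b (chr11:44399813-44400062, plus strand), the gene whose UMIs lay in the fewest cells, and for Il18 (chr9:50554450-50554699, plus strand), the 1 gene that was lower in macrophages under TAK-931.
Il12b: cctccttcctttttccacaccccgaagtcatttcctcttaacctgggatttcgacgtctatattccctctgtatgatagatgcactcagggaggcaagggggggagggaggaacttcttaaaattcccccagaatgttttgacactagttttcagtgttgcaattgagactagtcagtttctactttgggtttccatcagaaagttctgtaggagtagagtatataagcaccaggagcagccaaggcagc
Il18: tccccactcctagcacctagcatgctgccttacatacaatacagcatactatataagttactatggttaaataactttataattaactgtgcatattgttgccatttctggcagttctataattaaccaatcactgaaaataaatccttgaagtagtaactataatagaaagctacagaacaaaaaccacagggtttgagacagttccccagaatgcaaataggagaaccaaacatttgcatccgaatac
Both are in lower case throughout because neither held any of 3 motifs searched on both strands, an interferon response element (a pair of GAAA with NN between them), a STAT site (TTCNNNGAA) or an NF-kB-like site (GGGA and CC with NNNN between them), which 2.98%, 7.02% and 17.6% of all 32851 promoter windows of this length held. Over the 5 genes, 7 of 8 windows had no match. The eighth, a start of Il18r1 at chr1:40465756-40466005, had a pair of STAT-site matches, TTCTGGGAA and TTCCCAGAA. No match says only that these letters were not in the window.

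The genes divided by cell source, read against the share of all UMIs that each gate held. J558-like cells held 94.2% of all vehicle UMIs and 10.04% of all TAK-931 UMIs, monocyte/macrophage-like cells 1.94% and 47.8%, and T and NK-like cells 0.24% and 18.5%. Il12b UMIs lay mainly in mature dendritic-like cells, 86.6% of 119 UMIs with vehicle and 87.7% of 725 with TAK-931. Il27, Il18 and Il18bp were macrophage genes in the TAK-931 library, where that gate of monocyte/macrophage-like cells held 82.7%, 85.8% and 87.3% of their UMIs. Il2rb and Il18r1 were lymphocyte genes, with 81.5% and 84.7% of their TAK-931 UMIs in T and NK-like cells. Il15 and Il15ra had no single source. In the vehicle library J558-like cells supplied 71.3% of Il15 and 90.3% of Il15ra UMIs, and in the TAK-931 library monocyte/macrophage-like cells supplied 58.8% and 45.4%. The Il15ra shares were thus slightly under those of all UMIs in both gates. Endothelial, fibroblast and mural-like cells, with 7.45% of all TAK-931 UMIs, supplied a further 24.7% and 22.6%. For Il18 and Il18bp monocyte/macrophage-like cells were the main source already with vehicle, at 51.3% and 60.9%, beside 45.5% and 27.8% in J558-like cells. The main source of the IL-15 pair changed along with the mixture of cells, as the plot of UMI sources shows.

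**Figure D1:**
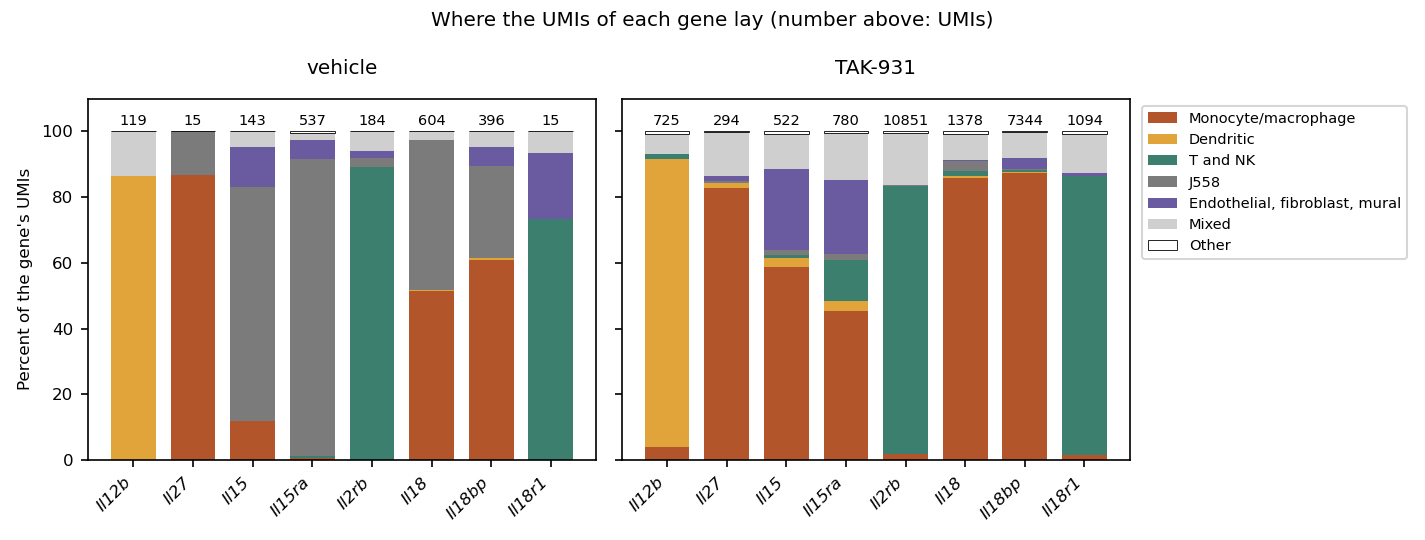
Percent of each gene's UMIs (vertical axis) that lay in each gate, for the 8 genes along the horizontal axis in the vehicle library (left) and the TAK-931 library (right), with the number of UMIs over each bar. Grey J558-like cells supplied 90.3% of Il15ra UMIs with vehicle, where they held 94.2% of all UMIs, while Il12b stayed dendritic and Il2rb and Il18r1 stayed lymphoid in both libraries.

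Levels are given as UMIs per 1000000 UMIs of the gate (CPM) with an exact Poisson 95% interval, and differences as the log2 ratio of TAK-931 over vehicle with an exact binomial interval. These intervals cover counting error only. A ratio was called when it passed 2-fold in a gene with an expected count of at least 5 in the smaller sum. The plot of levels by gate gives all 8 genes in the 7 main gates.

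**Figure D2:**
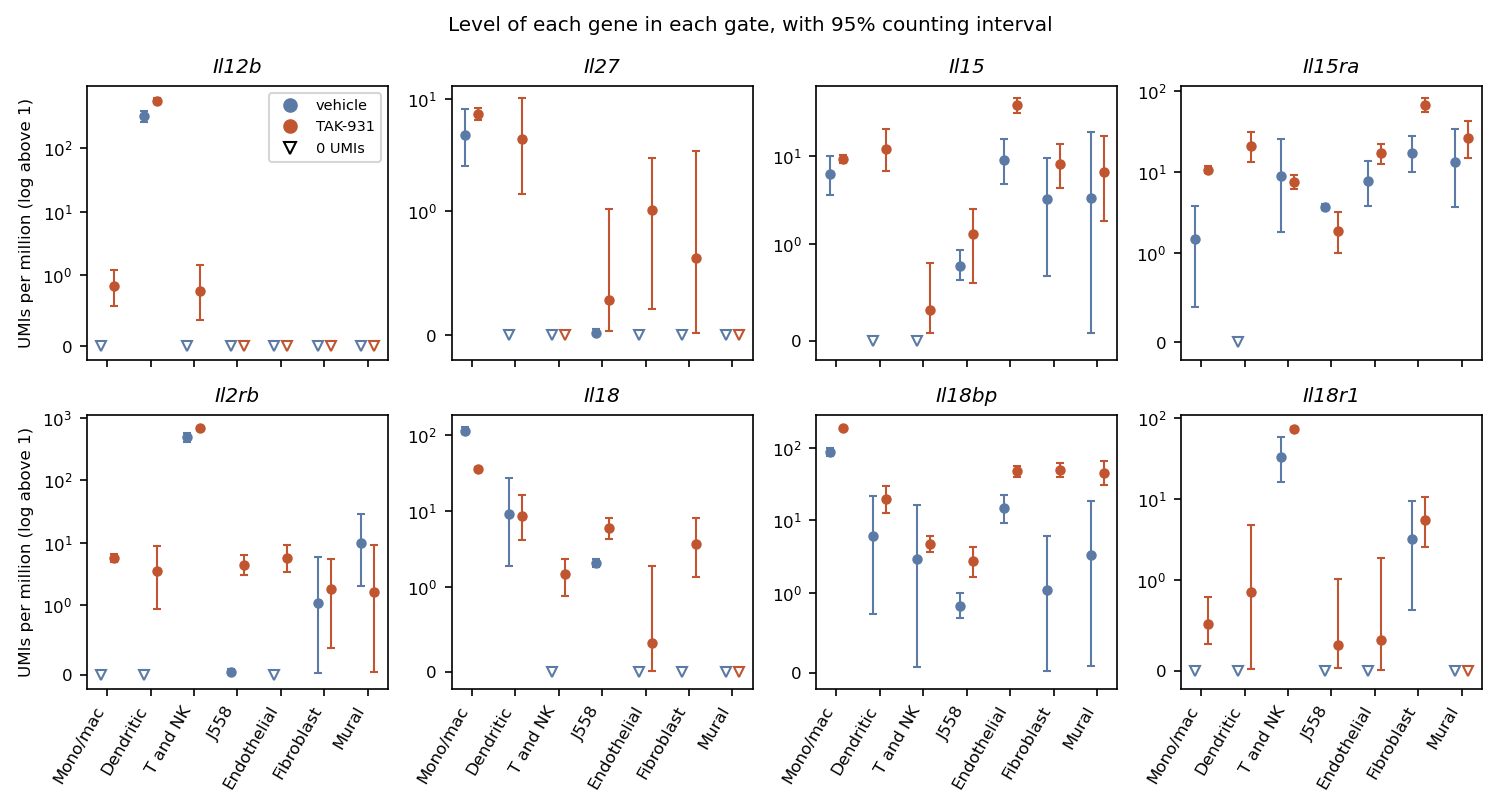
Level of each gene (CPM, logarithmic above 1) in 7 gates of the vehicle (blue) and TAK-931 (orange) libraries, with 95% counting intervals as bars and open triangles for gates with 0 UMIs. Il18 is the gene whose macrophage level was lower with TAK-931, 113 against 35.7, while Il18bp was higher in macrophage, endothelial, fibroblast and mural-like cells.

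In monocyte/macrophage-like cells 6 of the 8 genes could be compared. Il15ra, Il18bp and Il2rb were called higher, 3 genes where 6.8% of 10266 features were, and Il18 was called lower, 1 gene where 6.38% of features were. Their median log2 ratio was 0.88 beside -0.04 over all features. By the share of these cells with a UMI, at an equal depth of 4000 UMIs per cell, Il15ra and Il18bp were higher and Il18 lower with separate intervals, where 2.25% and 4.14% of 18474 features were. In dendritic-like cells 3 genes could be compared and 2 were called higher, Il15ra and Il18bp, against 8.63% of 5308 features, and none was called lower against 4.39%. In T and NK-like cells only Il2rb and Il18r1 could be compared, of which Il18r1 was called higher against 10.4% of 5951 features and none lower against 1.85%. In endothelial, fibroblast and mural-like cells together, a comparison added after the values were seen, all 4 genes that could be compared were called higher (Il15, Il15ra, Il18bp and Il2rb) against 9.35% of 12101 features, and none lower against 7.59%.

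**Figure D3:**
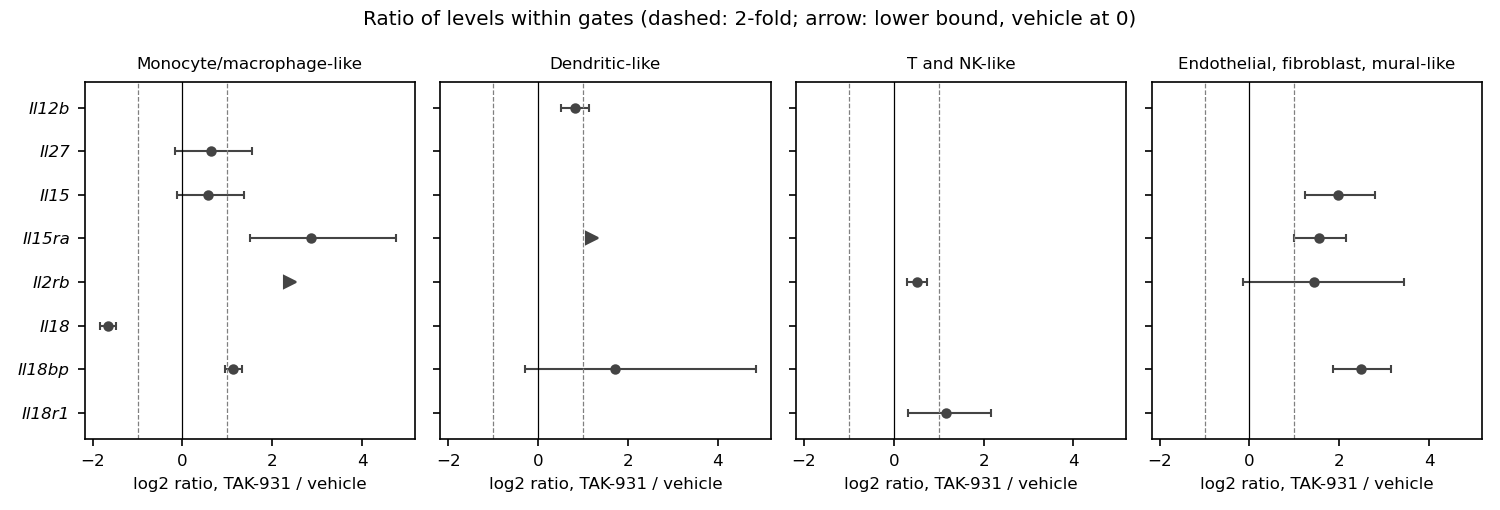
Log2 ratio of TAK-931 over vehicle (horizontal axis) of the genes that could be compared in each of 4 groups of cells, with 95% counting intervals, dashed lines at 2-fold and arrowheads for lower bounds where vehicle had 0 UMIs. Il18 lies at -1.66 in monocyte/macrophage-like cells, and the other called genes lie to the right.

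Il12b, the p40 chain, was carried by very few cells. The mature dendritic-like gate held 9 cells with vehicle and 10 with TAK-931, too few to compare, and its Il12b level was 872 CPM (712 to 1058) and 4074 CPM (3763 to 4403). With vehicle 2 of the 9 cells had Il12b, with 102 UMIs and 1 UMI. With TAK-931 6 of the 10 cells had it, with 484, 86, 41, 15, 7 and 3 UMIs. The highest cell thus held 99.0% of the gate's Il12b UMIs in the vehicle library and 76.1% in the TAK-931 library, and without these cells the level was 9.88 and 1101 CPM. Each cell with Il12b also had UMIs of Fscn1, the actin bundler of mature dendritic cells. Fscn1 is itself a marker of this gate, so finding both together there is partly fixed by the gate. In the gate 4 vehicle and 6 TAK-931 cells had Fscn1 at all, with 3 to 11 and 11 to 85 UMIs. The plot of Il12b by cell shows both libraries led by a single cell.

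**Figure D4:**
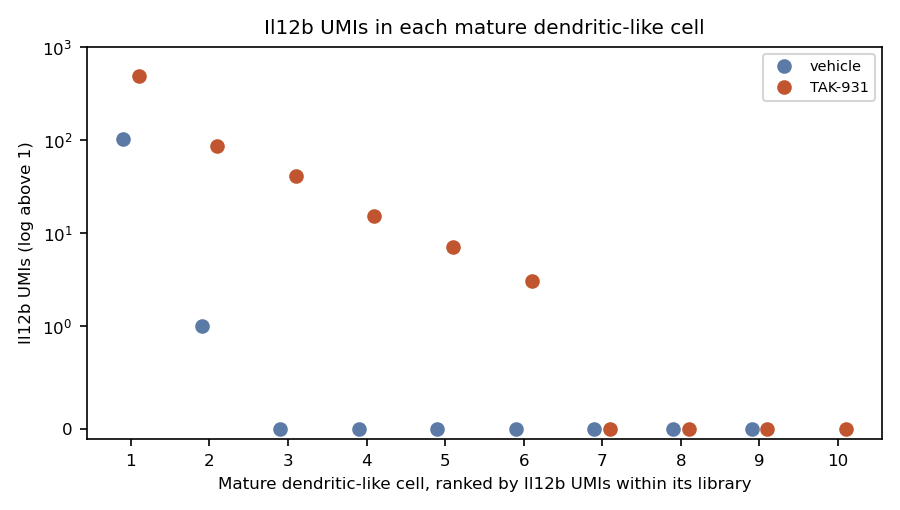
Il12b UMIs (vertical axis, logarithmic above 1) in each mature dendritic-like cell, ranked within its library (horizontal axis), for vehicle (blue) and TAK-931 (orange). The highest cells held 102 and 484 UMIs, and 7 vehicle and 4 TAK-931 cells held 0.

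Outside mature dendritic-like cells most gates were at or near the floor for Il12b. Cells left out as mixed held 16 and 44 UMIs, each set in at most 3 cells, and 1 TAK-931 cell past no gate held 6. Monocyte/macrophage-like cells had 0 UMIs with vehicle, where 3 counts would be 1.09 CPM, and 28 UMIs or 0.84 CPM with TAK-931, in 11 of 2012 cells, and 1 CD8 T-like cell of that library held 10 UMIs. Over conventional and mature dendritic-like cells together the level was 314 and 554 CPM, a log2 ratio of 0.82 (0.52 to 1.14), which was not called. This pooled gate was made up differently, of 16 conventional and 9 mature cells with vehicle and of 47 and 10 with TAK-931. Without the 1 highest cell of each library the gate held 1 and 153 UMIs, or 3.21 and 135 CPM. The partner chains were not seen with it: none of the 6 Il12b-bearing mature dendritic-like cells of the TAK-931 library had a UMI of Il12a or Il23a, which limits detection and says nothing of expression.

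Il27, the p28 chain of IL-27, was a sparse macrophage transcript. Its level was 4.74 CPM (2.52 to 8.11) from 13 UMIs with vehicle and 7.33 CPM (6.44 to 8.31) from 243 UMIs with TAK-931, a log2 ratio of 0.63 (-0.17 to 1.56) whose interval spans 0. At an equal depth of 4000 UMIs per cell 2.07% (0.63 to 4.95) and 3.13% (2.41 to 3.99) of monocyte/macrophage-like cells would carry an Il27 UMI, against 4.57% and 9.54% as sequenced. J558-like cells, which should lack it, had 0.02 and 0.29 CPM, from 2 UMIs each. It was not detected in conventional dendritic-like or NK-like cells of either library. Ebi3, the second chain of IL-27, was found in 61 of the 192 TAK-931 cells with Il27. At 4000 UMIs its share was 9.92% in cells with Il27 and 7.72% in cells without.

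Il15, the cytokine itself, was highest in endothelial-like cells among gates of at least 20 cells in the TAK-931 library, and differed most there. The endothelial level was 9.08 CPM (4.84 to 15.5) from 13 UMIs with vehicle and 38.1 CPM (31.4 to 45.9) from 112 UMIs with TAK-931, a log2 ratio of 2.07 (1.24 to 3.02). In monocyte/macrophage-like cells the levels were 6.20 (3.61 to 9.93) and 9.26 (8.25 to 10.4) CPM and the log2 ratio was 0.58, with an interval from -0.12 to 1.38 that spans 0. At 4000 UMIs per cell 3.59% (0.62 to 10.9) and 13.4% (8.58 to 19.7) of endothelial-like cells would carry an Il15 UMI, with intervals that overlap. The shares were 2.69% and 3.12% of monocyte/macrophage-like cells and 0.30% and 0.50% of J558-like cells. In the TAK-931 library dendritic-like cells had 14 Il15 UMIs and T and NK-like cells 4. The 10 mature dendritic-like cells of that library, below the limit of 20 cells, were at 44.8 CPM (18.0 to 92.4), from 7 UMIs in 4 cells. The endothelial gate also held macrophage list UMIs, 319 and 166 CPM in sum, which were lower with TAK-931, and mural list UMIs, 460.4 and 468 CPM; their part in the result was not tested.

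Il15ra, which carries IL-15 to the cell surface, was higher with TAK-931 in macrophages and in stromal gates. In monocyte/macrophage-like cells it went from 1.46 CPM (0.40 to 3.74), only 4 UMIs, to 10.7 CPM (9.59 to 11.8) from 354 UMIs, a log2 ratio of 2.87 (1.502 to 4.76). Equal depth left 0.75% (0.06 to 2.996) and 3.93% (3.12 to 4.87) of these cells with a UMI, against 1.46% and 1.04% of J558-like cells, so the vehicle share was no higher than in the tumor cells. At 2000 UMIs per cell the vehicle and TAK-931 intervals of the macrophage share overlapped. C1q-high and C1q-low cells of the TAK-931 library had 10.2 (8.88 to 11.6) and 11.7 (9.74 to 13.8) CPM, with overlapping intervals. In fibroblast-like cells, the highest gate of at least 20 TAK-931 cells, it was 17.3 CPM (9.88 to 28.1) and 67.9 CPM (55.8 to 81.9), for a log2 ratio of 1.97 (1.21 to 2.83). In endothelial-like cells it was 7.68 and 17.0 CPM, a log2 ratio of 1.15 (0.19 to 2.24). Mature dendritic-like cells had 0 of 9 cells with Il15ra in the vehicle library and 4 of 10 in the TAK-931 library, where the level was 109 CPM. Dendritic-like cells together held 0 and 24 UMIs, at least 2.28-fold higher with TAK-931 on a floor of 3 counts per library, but without the 1 highest cell the log2 bound was 0.72 and the call was lost.

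T and NK-like cells had 8.84 and 7.59 CPM of Il15ra, from too few vehicle UMIs (3, against 97) to compare, and J558-like cells went the other way. The J558-like level was 3.65 CPM (3.33 to 3.99) from 485 vehicle UMIs and 1.87 CPM (0.99 to 3.195) from 13 UMIs with TAK-931, a log2 ratio of -0.97 (-1.89 to -0.18) just inside 2-fold. The 99 TAK-931 cells in this gate were deeper, with a median of 70878 UMIs against 42422. Of the TAK-931 monocyte/macrophage-like cells with Il15, 49 of 226 also had Il15ra, and at equal depth the share with Il15ra was 5.29% in cells with Il15 and 3.88% in cells without. Of the few TAK-931 dendritic-like cells with Il15, 5 of 9 also had Il15ra, and the shares at equal depth were 46.4% and 5.41%.

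Il2rb, the beta chain that reads IL-15 and IL-2, marked the receiving cells. In T and NK-like cells the level was 483 CPM (412 to 563) from 164 UMIs with vehicle and 692 CPM (677 to 706) from 8843 UMIs with TAK-931, a log2 ratio of 0.52 (0.29 to 0.75), within 2-fold. NK-like cells, 11 and 72 of them, went from 575 CPM (457 to 715) to 1279.9 CPM (1212 to 1351), for a log2 ratio of 1.15 (0.83 to 1.495). In the TAK-931 library the order was NK-like 1279.9, CD8 T-like 654 (637 to 670.3), other T-like 638 (590.4 to 689) and CD4 T-like 563 CPM (527 to 602), and other T-like intervals overlapped those of both CD8 and CD4 T-like cells. CD8 T-like cells with a UMI of the cytotoxic protease Gzmb had 673 CPM and those without had 562. CD4 T-like cells with a Foxp3 UMI, the regulatory T cell factor, had 584 CPM and the 15 without had 395. At 4000 UMIs per cell 84.0% and 88.6% of T and NK-like cells would carry an Il2rb UMI, against 0.02% and 1.59% of J558-like cells, where the T marker list was 0.84 and 14.2 CPM.

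Il2rb was also called in monocyte/macrophage-like cells, at 0 UMIs with vehicle and 191 UMIs or 5.76 CPM (4.97 to 6.64) with TAK-931, at least 5.26-fold higher on a floor of 3 counts per library. This gate's T marker list went from 2.55 to 25.5 CPM, with 3 and 0 of its 6 genes at 0, its NK list from 1.82 to 3.38 CPM, and the lymphocyte genes Gzmb and Prf1 from 0 to 151 and 118 UMIs. In the 210 and 1370 cells with no UMI of the T or NK lists Il2rb was 0 and 2.89 CPM. These cells still held Gzmb at 0 and 44 UMIs and Prf1 at 0 and 31 UMIs, and where these UMIs came from was not tested. The same cells kept Il15ra at 1.54 and 10.4 CPM and Il18 at 117 and 37.8 CPM. In endothelial, fibroblast and mural-like cells Il2rb was 1.51 and 4.07 CPM, from 4 and 21 UMIs with an interval that spans 0, and the direction turned when free RNA was subtracted.

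Il18, the cytokine precursor, was the macrophage gene that was lower. In monocyte/macrophage-like cells it was 113 CPM (101 to 126) from 310 UMIs with vehicle and 35.7 CPM (33.7 to 37.8) from 1183 UMIs with TAK-931, a log2 ratio of -1.66 (-1.85 to -1.48). At 4000 UMIs per cell 24.8% (19.3 to 31.1) and 12.2% (10.8 to 13.7) of cells would carry an Il18 UMI, against 0.80% and 2.59% of J558-like cells. The ratio differed with the level of the complement genes C1qa, C1qb and C1qc. C1q-high cells, 126 and 1159 of them, had 143 CPM (127 to 161) and 32.6 CPM (30.2 to 35.1), for a log2 ratio of -2.14 (-2.34 to -1.93). C1q-low cells, 93 and 853, had 41.7 CPM in both libraries, with intervals of 28.9 to 58.3 and 38.0 to 45.7. C1q-high cells made up 57.5% and 57.6% of the gate, and 3 and 119 cells lay within 0.5 of the score limit. The interval of the ratio in C1q-low cells, -0.50 to 0.55, did not reach that of C1q-high cells. Limits of 1 and 2 in place of 1.5 gave -2.11 and -2.16 in C1q-high cells. The ratios of C1q-low cells at these limits are not reported here.

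Il18bp, the decoy that neutralises IL-18, was higher in the same macrophages. The level was 87.9 CPM (77.2 to 99.7) from 241 UMIs with vehicle and 193 CPM (189 to 198) from 6408 UMIs with TAK-931, a log2 ratio of 1.14 (0.95 to 1.33). C1q-high cells had 113 and 250.2 CPM and C1q-low cells 29.4 and 82.2 CPM, log2 ratios of 1.15 (0.96 to 1.35) and 1.48 (0.90 to 2.13), so both passed 2-fold, where Il18 did so in C1q-high cells and not in C1q-low cells. The C1q-high sums behind these levels were 217 and 5484 Il18bp UMIs, beside 276 and 714 Il18 UMIs. Equal depth left 18.0% (13.2 to 23.8) and 35.9% (33.8 to 38.0) of monocyte/macrophage-like cells with an Il18bp UMI, against 0.32% and 1.46% of J558-like cells. In cells with no UMI of the T or NK lists the levels were 91.0 and 176 CPM, and the log2 ratio of 0.95 was no longer past 2-fold. Within TAK-931 monocyte/macrophage-like cells the share with Il18bp at equal depth was 38.4% in cells with Il18 and 35.6% in cells without.

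**Figure D5:**
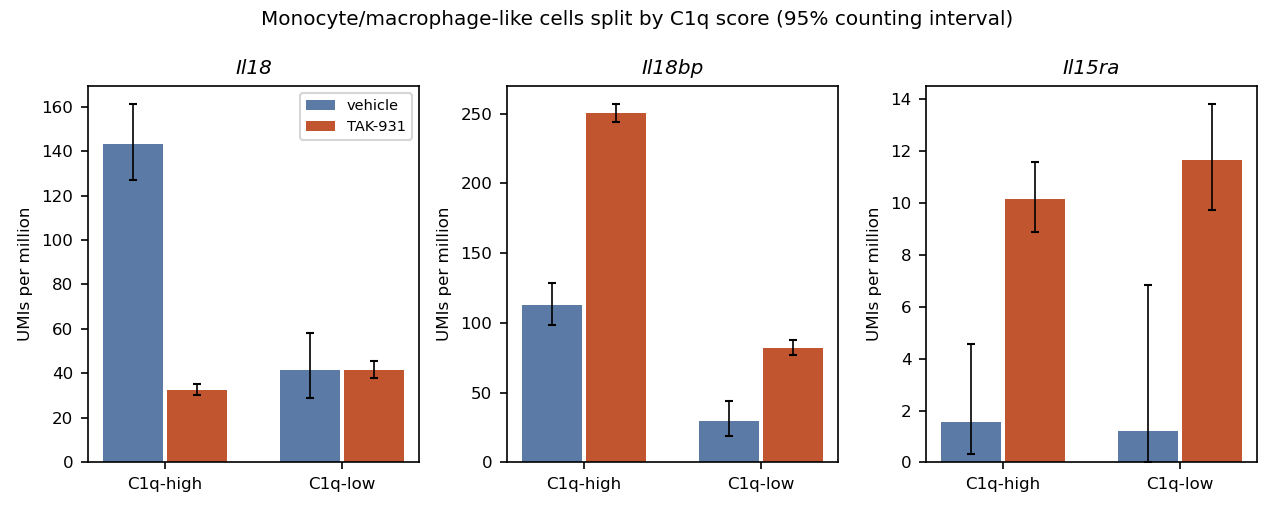
Level of Il18, Il18bp and Il15ra (CPM, vertical axes from 0) in C1q-high and C1q-low monocyte/macrophage-like cells of the vehicle (blue) and TAK-931 (orange) libraries, with 95% counting intervals. Il18 is lower in C1q-high cells, 143 against 32.6, and 41.7 in both C1q-low bars, while Il18bp and Il15ra are higher in both kinds of cell.

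Il18bp was also higher outside macrophages. In endothelial-like cells the levels were 14.7 (9.08 to 22.4) and 47.6 (40.1 to 56.2) CPM, with a log2 ratio of 1.70 (1.03 to 2.44). Fibroblast-like cells had 1 UMI in 29 cells with vehicle and 81 UMIs in 49 cells with TAK-931, or 1.08 and 50.03 CPM, with an interval of the log2 ratio from 3.01 to 10.9. Mural-like cells had 3.35 and 46.1 CPM, from 1 and 28 UMIs. In dendritic-like cells the call rested on 2 and 23 UMIs, a log2 ratio of 1.72 (-0.30 to 4.84) that spans 0. J558-like cells had 0.83 and 2.73 CPM of Il18bp and 2.07 and 5.89 CPM of Il18, and in that gate the macrophage marker list was 13.0 and 100.3 CPM; its part in these values was not tested.

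Il18r1, the ligand-binding IL-18 receptor chain, was a T and NK gene. The level was 32.4 CPM (16.2 to 58.0) from 11 UMIs with vehicle and 72.5 CPM (67.9 to 77.3) from 927 UMIs with TAK-931, a log2 ratio of 1.16 (0.31 to 2.17). In T-like cells alone the ratio was 1.07 (0.02 to 2.39). The call was lost with cells of over 1000 genes (0.40), with cells of over 500 genes (0.37) and as a mean of each cell's CPM (0.62). Without the vehicle cell that held 5 of the 11 UMIs and the highest TAK-931 cell the levels were 18.1 and 71.3 CPM. In the TAK-931 library CD4 T-like cells had 77.3 CPM (64.1 to 92.4), CD8 T-like cells 72.1 (66.8 to 77.9), NK-like cells 55.7 (42.2 to 72.2), and other T-like cells 85.1 (68.1 to 104.9). The NK-like and other T-like intervals both overlapped those of CD4 and CD8 T-like cells. CD8 T-like cells without a Gzmb UMI had 104.6 CPM (89.4 to 122), above the 65.2 CPM (59.6 to 71.2) of those with one, an order opposite to that of Il2rb; their median depth was 10678 UMIs, against 16680 in those with Gzmb. At 4000 UMIs per cell 11.03% (1.92 to 31.1) and 21.3% (18.3 to 24.5) of T and NK-like cells would carry an Il18r1 UMI. Il18rap, the signalling chain, was found at equal depth in 20.01% of CD8 T-like cells with Il18r1 and 11.3% of those without, and in 42.3% and 37.8% of NK-like cells, in the TAK-931 library.

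Over all kept cells each of the 8 genes was called higher, where 36.3% of 17213 features were, and none lower, where 19.1% were. The log2 ratios ran from 1.56 for Il15ra to 7.21 for Il18r1. The cell mixture differed greatly, so the level was computed that the TAK-931 mixture would have at the vehicle level of each gate. For Il2rb this was 90.0 CPM, beside 1.305 in the vehicle library and 157 in the TAK-931 library. For Il18 it was 55.5 CPM, above the measured 19.9, and for Il18bp it was 44.7, below the measured 106. For Il27, Il15 and Il15ra it was 2.27, 3.98 and 4.73 CPM, beside 4.24, 7.53 and 11.3 measured. No such level is given for Il12b, since 102 of its 119 vehicle UMIs lay in 1 cell, or for Il18r1, since 5 of the 11 UMIs of the vehicle T and NK-like gate lay in 1 cell.

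Other genes of the axes were read from a list of 48. In monocyte/macrophage-like cells 37 could be compared, and 8 were called higher and 0 lower, against 6.8% and 6.38% of all features, with a median log2 ratio of 0.25 beside -0.04 over all features. Irf1, an interferon-induced factor at several of these cytokine genes, went from 67.5 to 199.8 CPM, Socs1, a feedback inhibitor of cytokine signals, from 31.7 to 85.1, and Casp4, the inflammatory caspase-11, from 61.6 to 135. The receptor chain Il12rb2 rested on 3 and 109 UMIs. Gzmb and Prf1 were at least 4.16-fold and 3.25-fold higher, beside the T markers given above.

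In T and NK-like cells 35 list genes could be compared, and 8 were called higher and 1 lower, against 10.4% and 1.85% of all features, with a median of 0.19 beside 0.11. NK-like cells were 11 of the 23 vehicle cells and 72 of the 708 TAK-931 cells. Il12rb2, the signalling chain of the IL-12 receptor, went from 14.7 to 45.7 CPM, a log2 ratio of 1.63 (0.40 to 3.26), and Ifng, the interferon that IL-12 and IL-18 induce together, from 26.5 to 74.4, a log2 ratio of 1.49 (0.56 to 2.62). Myd88, the adaptor of the IL-18 receptor, had 2 and 282 UMIs, and Irf1 and Socs3 had log2 ratios of 1.56 (0.19 to 3.44) and 1.21 (0.16 to 2.53). Rel, an NF-kB subunit, was the 1 gene called lower, from 262 to 99.3 CPM, a log2 ratio of -1.40 (-1.71 to -1.07). It was 483 and 144 CPM in NK-like cells, and 106 and 95.4 CPM in T-like cells, where the ratio of -0.15 (-0.77 to 0.55) spans 0. In dendritic-like cells 29 could be compared and 5 were called higher, among them Irf1, Casp4, Il2ra and Irf8, with 0 lower, against 8.63% and 4.39% of all features, and a median of -0.00064 beside 0.01. In endothelial, fibroblast and mural-like cells 9 of 30 were higher and 1 lower, against 9.35% and 7.59% of all features, with a median of 0.30 beside -0.09, led by Il18rap with 2 and 28 UMIs, Irf1 from 62.1 to 375.5 CPM and Socs1 from 40.7 to 216 CPM. Over all kept cells, whose mixture differed as given above, 41 of 45 were higher, against 36.3% of all features.

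The genes most alike in level across 15 gate and library sums are given as a description, since these sums share libraries and depth. Il2rb was followed most closely by Nkg7 (Pearson r 0.988), Sh2d2a and Trbc1, and Il18r1 by Skap1 (0.965), Rbl2 and Camk4. Il27 was followed by Ahrr (0.975), F10 and Chil3, and Il18 by Cd300lf (0.927), Clec4a3 and Trim30c. Il18bp was followed by Oas2 (0.916), Znfx1 and Cxcl9, all of them genes known to be induced by interferon. Il15 was followed by Parvb (0.921), Acvrl1 and Fnbp1l, and Il15ra by Egr2 (0.915), Fgf18 and Magee1. None is given for Il12b, because its main source, the mature dendritic-like gate, had too few cells to enter these sums.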

How the data were processed

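The tables deposited by the authors hold raw UMI counts per gene and barcode, made from droplet 3′ v3.1 libraries with Cell Ranger 6.0.0, and the submitters' processing notes list mouse build mm10, although the methods text names a human build for all single-cell libraries. The feature identifiers are mouse. Each condition is 1 library, so no test was run and no p-value is given. The 8 genes and all gene lists were chosen with earlier results of these data known. The rule for named genes was the 8 genes in each gate, list genes past 2-fold with at least 20 UMIs in the higher library (at most 6 per gate, largest first), and the 3 genes with the highest correlation per gene.

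Cells passed the limits of the study's methods (over 2000 genes, under 15% mitochondrial UMIs). Gates used the mean of log(1 + UMIs per 10000) over 13 marker lists, at a limit of 0.5, or 0.3 for NK and dendritic lists. A T score of 1.3 separated T from NK-like cells, and a monocyte/macrophage score of 1 excluded dendritic ones. A C1q score of 1.5 split macrophages. All limits were set after the tables were seen, from marker scores alone. Cells past limits in more than 1 lineage (47 and 296) were left out as mixed, and no doublet caller was run. Counts were summed per gate and scaled to 1000000. Ratios needed 10 cells per library, and a sum of 0 was set to 3 counts as a floor. Shares at 4000 UMIs per cell are the expected share over all draws. No kept cell was shallower than that. The level for a mixture weights vehicle levels by the TAK-931 share of UMIs per gate. Alternatives covered cell filters, gate limits, mixed cells, scaling, mean CPM per cell, free RNA (the lowest ratio of another lineage's markers in the gate to that in all barcodes) and filters on low counts. The ratio, its interval and the 2-fold call were tested on simulated gate sums that held counting error only. Gates, shares at equal depth, mixture levels and free RNA were not simulated. Values of some list and marker genes are not reported here. Python 3.11.15, numpy 2.4.6, scipy 1.17.1, pandas 2.3.3 and matplotlib 3.10.9 were used.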

Additional observations from a re-analysis of the deposited data

Results flagged for a closer look

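Barcodes with over 500 and up to 2000 genes, left out above, also carried these genes. Their mixture differed, with 375 J558-like and 63 T and NK-like among 722 vehicle barcodes and 47 and 454 among 1147 TAK-931 barcodes. Levels pooled over this mixture lay above the vehicle interval for the genes given here. They were 4.20 CPM for Il27 (0 with vehicle), 11.7 for Il15 (3.22), 11.4 for Il15ra (4.29), 414 for Il2rb (69.7), 68.4 for Il18bp (8.58) and 52.0 for Il18r1 (8.93). Within T and NK-like low-gene barcodes, 63 and 454 of them, Il2rb was 818 CPM (702 to 946) with vehicle and 791 CPM (751 to 831) with TAK-931, and Il18r1 was 100.5 and 103.2 CPM, with overlapping intervals for both genes. Within monocyte/macrophage-like low-gene barcodes Il15 was 10.7 and 9.66 CPM, with intervals that overlap. Il18bp there was 45.5 CPM (26.5 to 72.8) and 206 CPM (181 to 235), with separate intervals. Il18 there was 74.9 CPM (49.8 to 108.2) from 28 UMIs and 47.4 CPM (35.6 to 61.9) from 54 UMIs, with intervals that overlap.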

How the results depend on the processing

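The number of the 8 genes called in monocyte/macrophage-like cells and over all kept cells moved by no more than 1.5 times under any alternative run. In dendritic-like cells the main count of 2 became 1 with cells of over 1000 or over 500 genes, 0 with gate limits 1.5 times as high and 1 without the highest cell, and the list genes called there, 5 at first, became 3, 3 and 9 with the first 3 of these settings. In T and NK-like cells the count of 1 became 0 with cells of over 1000 genes, 0 with cells of over 500 genes and 0 as a mean of each cell's CPM. In endothelial, fibroblast and mural-like cells the count of 4 became 7, and the list genes called went from 10 to 18, when mixed cells were kept, and to 16 with no filter on low counts. The share of all features past 2-fold is given for the main setting only. Changed counts in any of these gates therefore have no background beside them. Subtracting free RNA turned Il2rb in those cells to -1.24 on the log2 scale; the cause was not tested. By separate intervals of the share of monocyte/macrophage-like cells with a UMI, 3 of the 8 genes were called at 4000 UMIs per cell (6.39% of 18474 features with a UMI there), 2 at 2000 (3.5%) and 5 with no thinning (16.9%). The gene lost at 2000 was Il15ra, with 0.37% (0.005 to 2.37) of vehicle and 2.04% (1.47 to 2.75) of TAK-931 cells. Scaling by the median ratio moved the median of all features in monocyte/macrophage-like cells from -0.04 to 0.07 and changed no count of the 8 genes. Of 262 single values recomputed, 250 kept their side of 2-fold, 9 lost it, 2 gained it and 1 turned. The highest-cell and T-marker alternatives and the vascular and stromal comparison were chosen after seeing the data. The vehicle side of the T and NK-like gate rested on 23 cells and that of the dendritic-like gate on 25. Each condition was 1 library from 1 allograft, so no spread between animals is known.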

Other observations

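Neutrophil-like barcodes were almost absent from the kept cells and appeared below the gene limit, 27 with vehicle and 54 with TAK-931. Their Il15 level was 62.0 CPM (12.8 to 181) from 3 UMIs and 73.7 CPM (36.8 to 132) from 11 UMIs, with intervals that overlap. Il12b in low-gene barcodes was higher with vehicle, 17.9 against 5.60 CPM, and 1 barcode held 33 of the 50 vehicle UMIs and 1 held 23 of the 24 TAK-931 UMIs, as single cells led its UMIs in the kept cells.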
